A study of Homo sapiens with 4 samples.

Results

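The genes examined here encode the protein partners of small nucleolar RNAs (snoRNAs) and 3 abundant nucleolar proteins. They are the box C/D proteins FBL, NOP56, NOP58 and SNU13, the box H/ACA proteins NHP2, NOP10 and GAR1, and the nucleolar proteins NCL, NPM1 and NOLC1, 10 of 19970 protein-coding genes. Their promoter peaks were all ATAC-seq peaks within 3 kb of an annotated start of any of their transcripts, which gave 10 of 47610 control peaks and 11 of 42682 sgSNHG1 peaks. Chromatin accessibility had been measured in SK-N-BE(2)C, a MYCN-amplified neuroblastoma cell line, by ATAC-seq, in which the Tn5 transposase cuts open chromatin and the resulting fragments are sequenced. Both groups were grown in DMEM with 10% FBS and carried the CRISPR/Cas9 system. Control cells (genotype wildtype) had a non-targeting guide, and sgSNHG1 cells (labelled genotype SNHG1 knockout) had a pair of guides against SNHG1. SNHG1 is a lncRNA gene that itself contains snoRNAs. According to the paper, its expression was strongly lowered but the knockout was not complete. Cells were selected with puromycin and expanded from single sorted cells, so that a difference between clones cannot be told apart from an effect of the guides. Each group had 2 replicates, combined by the authors before peaks were called, so that there is 1 pooled list per group, no replicate spread and no test between the groups.

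A snoRNA acts as a guide within a ribonucleoprotein particle (snoRNP). In box C/D particles SNU13 binds the kink-turn of the RNA, NOP56 and NOP58 form the scaffold, and FBL (fibrillarin) is the methyltransferase that modifies the 2′-hydroxyl of ribosomal RNA. In box H/ACA particles the pseudouridine synthase DKC1 works with NHP2, NOP10 and GAR1. NCL (nucleolin) and NPM1 (nucleophosmin) take part in ribosome assembly and in the organisation of the nucleolus, and NOLC1 (Nopp140) carries snoRNPs between Cajal bodies and nucleoli. Many snoRNAs are spliced out of introns of genes for ribosomal or nucleolar proteins. That applies here to 12 annotated snoRNA genes in 3 of the 10 genes: 5 in NOP56 (SNORD110, SNORA51, SNORD86, SNORD56 and SNORD57), 4 in NOP58 (SNORD70, SNORD70B, SNORD11B and SNORD11) and 3 in NCL (SNORA75, SNORD20 and SNORD82).

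The stretches just upstream of the starts of 6 genes are shown because they lie under, or next to, the peaks compared below. FBL had a peak in control alone, NOP56 had the lowest lead pair, NHP2 the highest ratio, NOP10 the only E-box, GAR1 the split between both measures and NCL the widest peak. Sequences are RefSeq promoters (GRCh38.p14), 5′ to 3′ on the strand of the gene, limited to bases outside annotated exons. Capitals mark matches, on either strand, to 8 short motifs, none of which contains another. They are CACGTG, the E-box of the MYC family, the core GATA of the factors of that name, and CCGGAA, which ETS factors bind. The remaining ones are CCAAT for NF-Y, GGGCGG for SP1 and its relatives, TGACGTCA for CREB, GCATGCGC for NRF1 and AAGATGG for YY1. The FBL stretch is chr19:39846380-39846629 on the minus strand, the NOP56 stretch chr20:2652382-2652592 on the plus strand, and the NHP2 stretch chr5:178153895-178154047 on the minus strand. The NOP10 stretch is chr15:34343181-34343314 on the minus strand, the GAR1 stretch chr4:109815411-109815509 on the plus strand, and the NCL stretch chr2:231464552-231464734 on the minus strand.
FBL: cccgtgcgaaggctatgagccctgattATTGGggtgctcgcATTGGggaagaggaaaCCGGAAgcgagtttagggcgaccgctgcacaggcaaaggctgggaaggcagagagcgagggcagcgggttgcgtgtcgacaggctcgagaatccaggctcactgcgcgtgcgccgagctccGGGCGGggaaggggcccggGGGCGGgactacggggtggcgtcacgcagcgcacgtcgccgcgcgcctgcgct
NOP56: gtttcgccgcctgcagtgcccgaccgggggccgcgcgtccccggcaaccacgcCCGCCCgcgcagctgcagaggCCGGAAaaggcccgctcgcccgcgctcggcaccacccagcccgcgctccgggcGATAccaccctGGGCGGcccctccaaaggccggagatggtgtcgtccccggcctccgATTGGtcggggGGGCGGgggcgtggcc
NHP2: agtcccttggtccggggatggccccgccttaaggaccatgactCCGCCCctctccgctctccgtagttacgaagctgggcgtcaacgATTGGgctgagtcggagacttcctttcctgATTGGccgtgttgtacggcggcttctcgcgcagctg
NOP10: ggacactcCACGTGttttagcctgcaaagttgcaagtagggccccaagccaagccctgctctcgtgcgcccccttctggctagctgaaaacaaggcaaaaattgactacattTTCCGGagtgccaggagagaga
GAR1: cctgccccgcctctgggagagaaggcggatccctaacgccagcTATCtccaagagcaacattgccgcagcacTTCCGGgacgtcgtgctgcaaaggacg
NCL: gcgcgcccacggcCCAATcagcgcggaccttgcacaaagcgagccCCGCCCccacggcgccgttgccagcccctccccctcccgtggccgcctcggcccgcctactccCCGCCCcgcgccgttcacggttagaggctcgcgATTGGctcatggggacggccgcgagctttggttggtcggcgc

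Each peak has a fold enrichment, the fragment pileup at its summit plus 1 over the local background of the same list plus 1. The pseudocount of 1 is an assumption under which a whole-number pileup matched the -log10 p of nearly all peaks, and it lowers the fold enrichment most where the background is low. The pileup, a number of fragments, was recovered from fold enrichment and -log10 p together, and had a median of 24 in control (quartiles 17 and 37) and 20 in sgSNHG1 (quartiles 15 and 30). Dividing it by the lowest local background of its list, 2.20 fragments in control and 1.72 in sgSNHG1, gives the scaled pileup, a level that does not depend on the surroundings of the peak. Ratios are log2 of sgSNHG1 over control, and their counting error comes from both pileups and covers the counting of fragments alone. The cell line was checked on markers: 5 of 6 neuroblastoma genes (CHGA, DBH, ISL1, GATA3 and HAND2, but not TH) had promoter peaks in control and sgSNHG1, with log2 ratios of fold enrichment between -0.48 and -0.01. Of 6 markers of other cell types, PTPRC, CD3E, ALB and KRT5 had none in either list, while CDH5 and COL1A1 had one in both, with ratios of -0.53 and 0.20.

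A pair of overlapping peaks was found for 8 of the 10 genes (80%), against 62.7% of 19970 protein-coding genes. That share counts 5648 genes without a promoter peak in either list, whereas all 10 genes here had one. In the other pathway lists described below, the share with a pair ran from 92.6% to 100%. FBL had a promoter peak in control alone, as did 6.07% of protein-coding genes, and SNU13 in sgSNHG1 alone, as did 1.98%. Both shares also count the genes without a peak. Of the 10 control peaks, 9 (90.0%, 95% Wilson interval 59.6 to 98.2) overlapped an sgSNHG1 peak, against 66.7% of all control peaks. Of the 11 sgSNHG1 peaks, 10 (90.9%, 62.3 to 98.4) overlapped a control peak, against 78.2% of all sgSNHG1 peaks. The intervals treat peaks as independent draws, although NCL has 2 in each list and both NOP56 peaks of sgSNHG1 overlap 1 control peak. Nearly all promoter peaks of the 10 genes were thus present with and without the SNHG1 guides. The shares over all peaks include peaks outside promoters, so that they are not a like-for-like background. The 2 exceptions were at the box C/D genes FBL and SNU13. The FBL peak was below the least scaled pileup called in sgSNHG1 at the genome-wide background, and the SNU13 peak cannot be assigned to SNU13 rather than C22orf46P.

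Fold enrichment was higher in sgSNHG1 at the 3 box H/ACA genes, NCL and NPM1, and lower at NOP56, NOP58 and NOLC1, and with the scaled pileup GAR1 alone was on the other side of 0. The median log2 ratio over the 8 genes was 0.04 (quartiles -0.11 and 0.11), beside -0.07 (-0.27 and 0.11) over 12526 protein-coding genes with a pair, and with the scaled pileup it was -0.03, beside -0.04 over all genes, of which 54.7% were lower. Without the pseudocount the medians were 0.19 and -0.0044, with NOLC1 at 0.03 and 2 of the 8 genes lower, against 50.8% of all genes. By the deposited fold enrichment, 3 of the 8 genes (37.5%) were lower in sgSNHG1, against 60.4% of all genes with a pair. None of the 8 had a ratio of -0.5 or lower, reached by 8.17% of all genes, and none had a ratio of 0.5 or higher, reached by 2.21%. Nor did any exceed 2 counting errors, as 2.04% of all genes did. The counting error of the members had a median of 0.30 and exceeded the ratio in every gene but NOP58. No difference in fold enrichment of a single gene was thus detected at this depth.

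**Figure D1:**
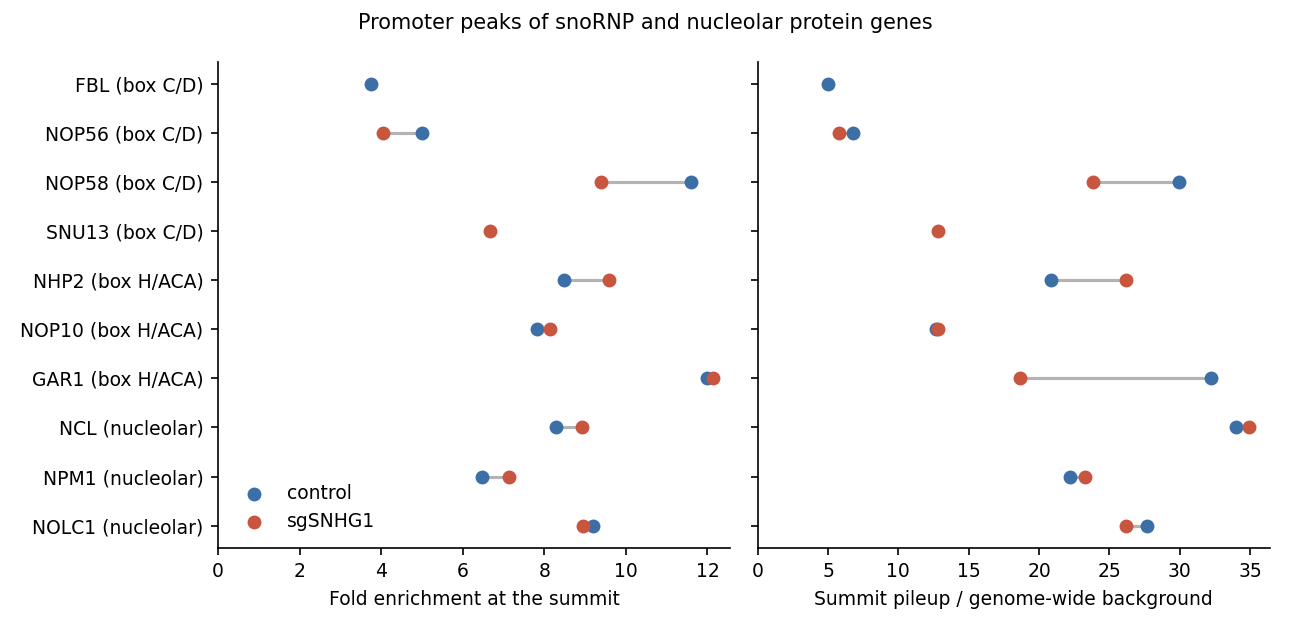
Fold enrichment (left, a ratio without unit) and scaled pileup (right, pileup over genome-wide background, without unit) of the lead promoter peak of each gene, with blue points for control and red points for sgSNHG1, 1 pooled list each and no error shown. FBL has a blue point alone and SNU13 a red point alone, and GAR1 has nearly equal fold enrichments (12.0 and 12.1) but scaled pileups of 32.2 and 18.6.

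Among the box C/D genes, NOP58 (ENSG00000055044.11, plus strand) had the highest peak. It lay at chr2:202265538-202265982 in control with fold enrichment 11.6 and pileup 66, and at chr2:202265594-202266003 in sgSNHG1 with 9.40 and 41. Fold enrichment had a log2 ratio of -0.30, counting error 0.29 (95% counting interval -0.86 to 0.26), and that of the scaled pileup was -0.33. The summit lay in an exon, 4 bp downstream of the annotated start, in control and 36 bp upstream of it in sgSNHG1. Within 2 Mb, 59 pairs of peaks had a median ratio of scaled pileup of -0.16, beside -0.04 over all protein-coding genes with a pair.

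NOP56 (ENSG00000101361.17, plus strand) had a weaker peak, at chr20:2652249-2652807 in control with fold enrichment 4.99 from 15 fragments. In sgSNHG1 a peak at chr20:2652336-2652625 with 4.05 from 10 fragments lay inside that interval, and another at chr20:2652803-2652918 with 3.68 from 9 fragments overlapped only its end. The former, whose summit was 116 bp upstream of the gene, formed the lead pair with the control peak. For this pair fold enrichment had a log2 ratio of -0.30 (counting error 0.59, interval -1.46 to 0.85), and that of the scaled pileup was -0.23. Summing both sgSNHG1 peaks turned the log2 ratio of fold enrichment to 0.63. The fold enrichment of the control peak was higher than that of only 10.5% of genes with a pair, and these pileups are near the 10 and 9 fragments at which a peak was first called over the genome-wide background. The start of MIR1292 lay 128 bp from a NOP56 start.

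FBL (ENSG00000105202.9, minus strand) had its single promoter peak at chr19:39846357-39846493 in control, with fold enrichment 3.74, pileup 11 and -log10 q 3.11. The summit lay 89 bp upstream of the annotated start, and 114 of the 250 bases printed above were inside the peak. The nearest sgSNHG1 peak was 12435 bp away. Of 1212 genes with a promoter peak in control alone, whose median fold enrichment was 4.42, 939 had a higher value than FBL. The same scaled pileup (4.99) would have been below the least that was called in sgSNHG1 (5.23), so that a loss of this peak was not detectable at the depth of the sgSNHG1 list. Beyond the 3′ end of FBL, a peak 494 bp from the gene had fold enrichments of 5.93 in control and 8.31 in sgSNHG1 (pileups 18 and 23), or 0.49 (log2), counting error 0.45. Another, 9708 bp from the gene, had 4.37 and 9.29 (pileups 13 and 25), or 1.09 (log2), counting error 0.49. Neither belongs to the FBL promoter.

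SNU13 (ENSG00000100138.15, minus strand) had its single promoter peak at chr22:41688791-41688969 in sgSNHG1, with fold enrichment 6.67, pileup 22 and -log10 q 11.4. The nearest control peak was 8124 bp away. Of 396 genes with a promoter peak in sgSNHG1 alone, with a median of 4.52, 23 had a higher fold enrichment. Its scaled pileup of 12.8 was 2.82 times the least called in control at the genome-wide background (4.54), so that a peak of this height could have been called in control where the local background was at that level. The summit was 3 bp upstream of an internal start of SNU13 and 1654 bp downstream of the start of the gene record. That of C22orf46P, a pseudogene of the opposite strand, lay 10 bp from a SNU13 start, and the peak cannot be assigned to either gene.

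**Figure D2:**
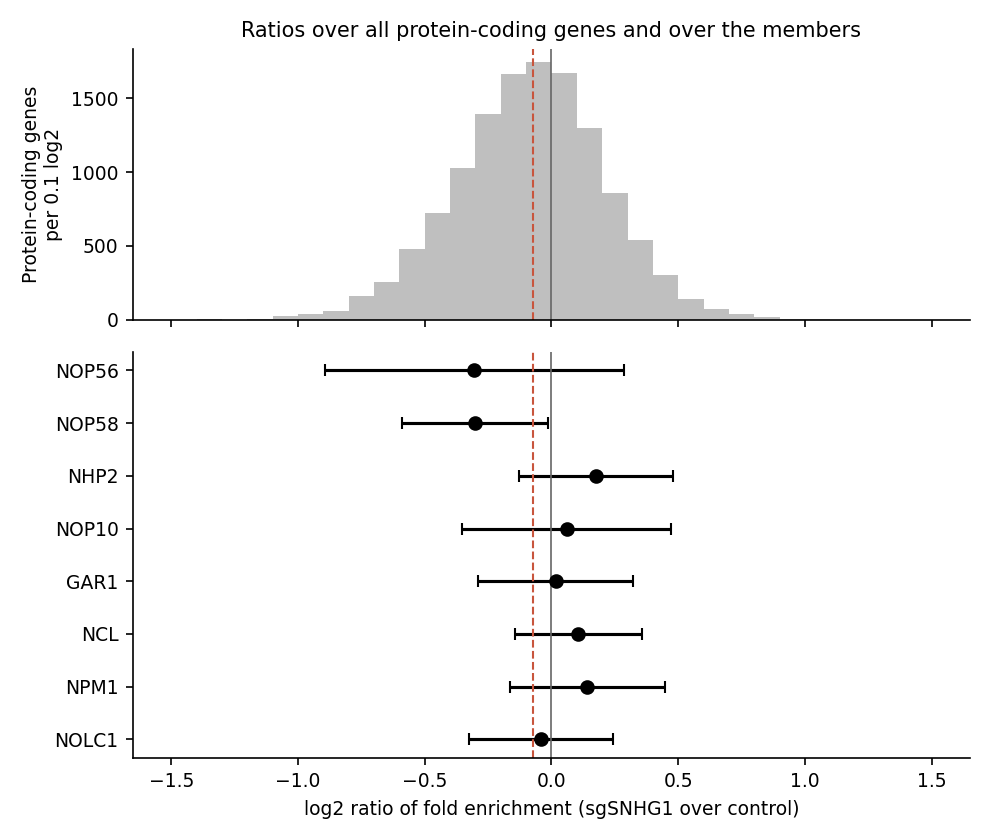
Top, number of protein-coding genes per 0.1 of the fold enrichment ratio, sgSNHG1 over control, on the log2 scale. Bottom, the same ratio for the 8 genes with a pair, with bars of 1 counting error. The dashed line is the median of all genes (-0.07), and 7 of the 8 bars cross 0, the exception being NOP58.

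The box H/ACA genes all had ratios of fold enrichment above 0, each smaller than its counting error, but GAR1 was below 0 by the scaled pileup. NHP2 (ENSG00000145912.10, minus strand) had a peak at chr5:178153780-178154176 in control, with fold enrichment 8.48 from 46 fragments. In sgSNHG1 it lay at chr5:178153769-178154096 with 9.58 from 45 fragments, so that the log2 ratio was 0.18 (counting error 0.30, interval -0.42 to 0.77). The summits, 43 and 48 bp upstream of the annotated start, were 5 bp apart. The ratio of scaled pileup was 0.33, above the 0.10 of 88 pairs within 2 Mb. The lncRNA gene ENSG00000289726 starts 154 bp away on the opposite strand.

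NOP10 (ENSG00000182117.7, minus strand) reached a fold enrichment of 7.82 from 28 fragments in control, at chr15:34343093-34343451, and 8.15 from 22 fragments in sgSNHG1, at chr15:34343120-34343311. The log2 ratio was 0.06 (counting error 0.41, interval -0.75 to 0.87), and that of the scaled pileup was 0.01. NUTM1, a gene of the opposite strand, starts 135 bp from NOP10, and the NOP10 peak covers both starts in control. In sgSNHG1 it ended short of the NUTM1 start. A separate peak 908 bp beyond the 3′ end of NOP10 went from 8.72 to 6.14, or -0.51 (log2), counting error 0.40.

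GAR1 (ENSG00000109534.17, plus strand) had the highest fold enrichment of the 8 genes in both lists, 12.0 at chr4:109815184-109815811 in control and 12.1 at chr4:109815230-109815784 in sgSNHG1. The log2 ratio was 0.02 (counting error 0.31, interval -0.59 to 0.62). The pileup, however, was 71 in control and 32 in sgSNHG1, and the log2 ratio of scaled pileup was -0.79, which is 2.58 counting errors from 0. GAR1 was the only gene of the 8 at -0.5 or lower on that scale, a limit passed by 10.8% of all genes. The share of all genes past 2 counting errors on that scale was not counted. The local background was 5.00 fragments in control and 1.72, the lowest of the list, in sgSNHG1, so that the pileup and the background around it were both lower in sgSNHG1. The near equality of the fold enrichments rests on the pseudocount. Without it the ratios of pileup to background were 14.2 and 18.6, or 0.39 on the log2 scale. GAR1 lies on 4q, and 19 pairs within 2 Mb of it had a median ratio of scaled pileup of -0.88 and of fold enrichment of -0.14. The peaks around GAR1 were thus low as well. The summit lay in an intron, 87 bp downstream of the start of the gene record, in control and 52 bp upstream of it in sgSNHG1, a shift of 139 bp towards GAR1-DT, a lncRNA gene that starts 100 bp away on the opposite strand.

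DKC1, the enzyme of these particles, had fold enrichments of 9.32 and 8.81, or -0.08 (log2), counting error 0.30. Its scaled pileup had a ratio of 0.63 (pileups 43 and 52). NAF1, which brings the H/ACA proteins together before GAR1 replaces it, is on 4q like GAR1 and had ratios of -0.33 for fold enrichment and -1.18 for scaled pileup, from pileups of 64 and 22. For the genes of this particle on 4q and Xq the measures therefore gave different pictures, as at some other listed genes of these arms. On 4q the ratio of scaled pileup was -1.41 at SNHG8, -0.99 at RPS3A, -0.75 at RPL34 and -0.55 at HAND2, but 0.25 at SNHG27. On Xq it was 1.19 at RPL10 and 0.45 at RPL36A, but -0.05 at RPL39 and -0.38 at RPS4X. Whether the difference at GAR1, NAF1 and DKC1 belongs to the arms was not tested.

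**Figure D3:**
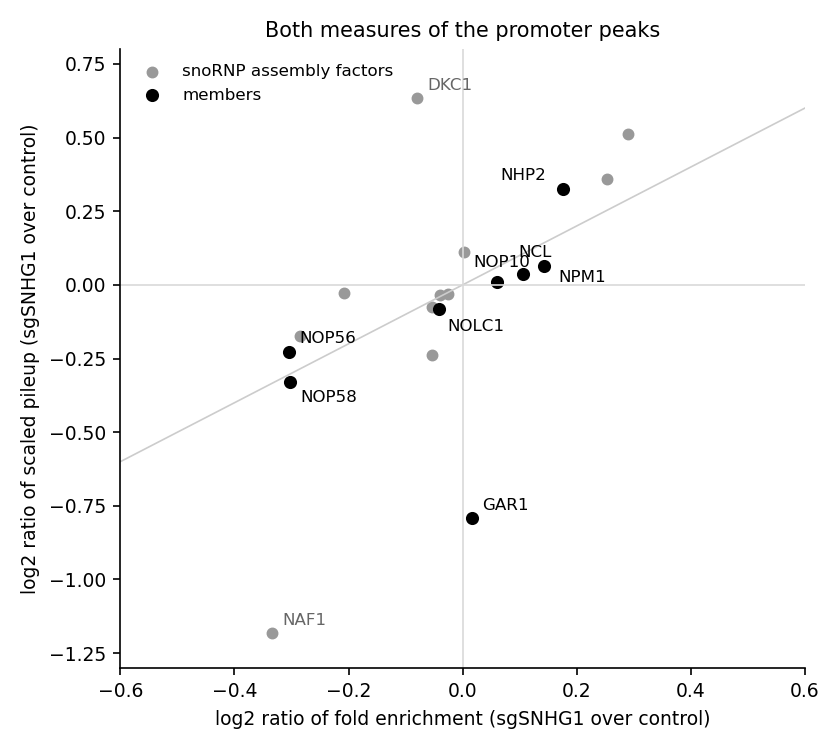
Log2 ratio of scaled pileup against log2 ratio of fold enrichment (both sgSNHG1 over control), with black points for the 8 genes with a pair, grey points for 11 genes of snoRNP assembly, and a line where both ratios are equal. GAR1 (0.02 and -0.79) and NAF1 (-0.33 and -1.18) lie below the line and DKC1 (-0.08 and 0.63) above it, while the other 7 black points stay near it.

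Among the nucleolar proteins, NCL (ENSG00000115053.17, minus strand) had the widest peak, 1230 bp (control) at chr2:231464006-231465235 and 960 bp (sgSNHG1) at chr2:231464191-231465150. The fold enrichments were 8.28 and 8.91 (pileups 75 and 60), a log2 ratio of 0.11 (counting error 0.25, interval -0.38 to 0.60). The summits lay 2 and 7 bp into an exon of transcripts that start well inside the gene record, and a second, lower pair was found near the start of that record. It lay at chr2:231482859-231483146 in control with 4.79 and at chr2:231482764-231483083 in sgSNHG1 with 4.96, both with a pileup of 19. Both pairs of NCL thus had close to equal fold enrichments in control and sgSNHG1.

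NPM1 (ENSG00000181163.14, plus strand) had fold enrichments of 6.46 at chr5:171387420-171387855 in control and 7.13 at chr5:171387465-171387884 in sgSNHG1 (pileups 49 and 40). The log2 ratio was 0.14 (counting error 0.31, interval -0.46 to 0.74), and that of the scaled pileup was 0.07, equal to the median of 61 pairs within 2 Mb. Both summits lay in an intron, 146 and 133 bp upstream of the next annotated start, and MIR3912 starts 356 bp from an NPM1 start. NOLC1 (ENSG00000166197.17, plus strand) had 9.20 at chr10:102151981-102152636 in control and 8.94 at chr10:102151992-102152410 in sgSNHG1 (pileups 61 and 45). Its ratio was -0.04 (counting error 0.28, interval -0.60 to 0.52), and -0.08 for the scaled pileup. The NOLC1 summit lay in an exon in both lists and was 126 bp closer to the start of the gene record in sgSNHG1.

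The order of the levels was similar in both lists. By fold enrichment in control it ran from NOP56 through NPM1, NOP10, NCL, NHP2, NOLC1 and NOP58 to GAR1. In sgSNHG1 the only change was that NHP2 moved above NOLC1 and NOP58. The highest value was 2.40 times the lowest in control and 3.00 times in sgSNHG1. None of the 7 steps between neighbours exceeded 2 counting errors in either list, and 1 step in control (NOLC1 to NOP58) and 2 in sgSNHG1 (NOP56 to NPM1 and NHP2 to GAR1) exceeded 1.

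All 8 genes with a pair had a narrower peak in sgSNHG1, as had 83.9% of all genes with a pair. The sgSNHG1 width was a median of 80.3% of the control width, against 76.6% over all genes. NOP56 (559 bp against 290 bp) and NOP10 (359 against 192 bp) stood at the low end, and NPM1 (436 against 420 bp) at the high end. Over the whole lists the narrowest peaks spanned 119 bp (control) and 92 bp (sgSNHG1), with median widths of 332 and 238 bp, so that the widths of these genes moved with those of the lists. The part of the list-wide difference in the widths of these genes was not tested. Summits shifted by 5 bp at NHP2 and NCL, 13 bp at NPM1, 36 bp at NOP10, 40 bp at NOP58, 96 bp at NOP56, 126 bp at NOLC1 and 139 bp at GAR1. The median shift was 38 bp, against 44 bp over all genes.

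**Figure D4:**
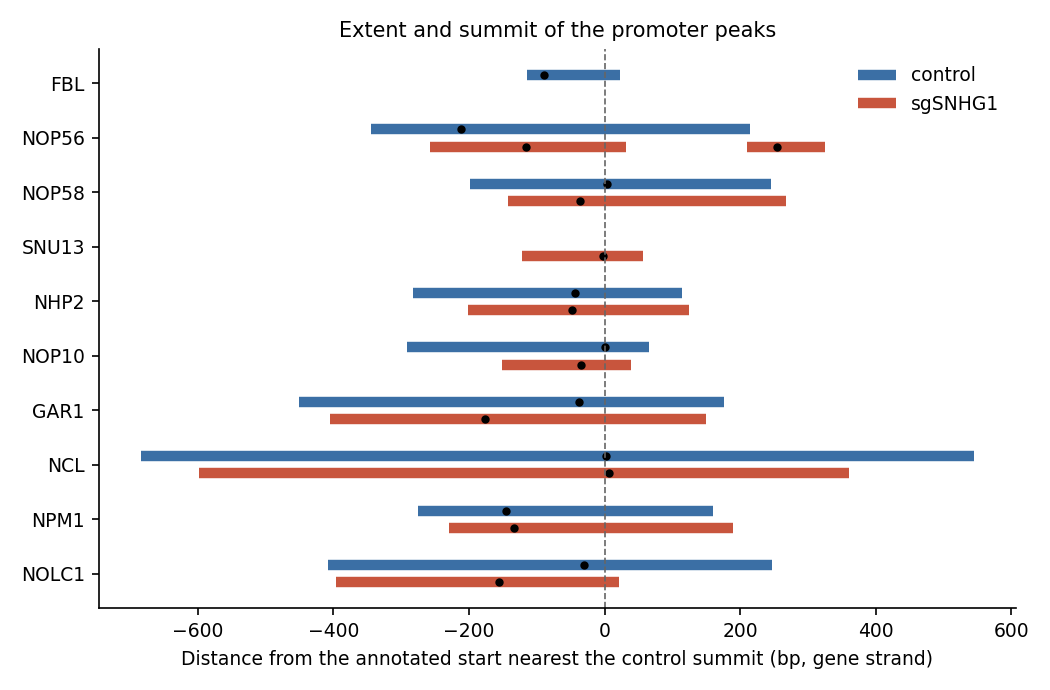
Extent (bars) and summit (black points) of the promoter peaks of each gene in control (blue) and sgSNHG1 (red), in bp along the gene strand from the annotated start nearest the control summit, or nearest the sgSNHG1 summit for SNU13. The second NCL pair is not drawn, NOP56 has 2 sgSNHG1 peaks under and beside its control peak, and the red bar of the pair is shorter than the blue one in all 8 genes with a pair.

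The sequence around the summits was described by the motifs listed above, counted within 100 bp of the control summit. GGGCGG was present in 6 of the 8 genes with a pair (60.2% of all genes with a pair), CCAAT in 4 (31.9%: GAR1, NCL, NHP2 and NOP10), GATA in 4 (25.2%: GAR1, NOLC1, NOP58 and NPM1) and CCGGAA in 2 (23.7%: NOP10 and NOP56). CACGTG, the E-box bound by MYCN and MYC, was present at NOP10 alone, against 7.01% of all genes. The CACGTG printed above for NOP10 lies outside this window, so that the match counted here is another one. The printed one is nearer the start of NUTM1 than that of NOP10. TGACGTCA, GCATGCGC and AAGATGG had no match, against 2.42%, 4.35% and 4.99%. In the 250 bases upstream of the RefSeq start, for the 7 genes with an entry, CCGGAA matched in 4 (FBL, NOP56, NOP10 and GAR1), beside 14.8% of 27195 promoters, and CCAAT in 4 (FBL, NOP56, NHP2 and NCL), beside 33.0%. GGGCGG matched in 5 of the 7 (42.4% of promoters), GATA in 3 (46.5%) and CACGTG again in NOP10 alone (6.50%). The 27195 promoters were taken with or without a peak, whereas each of the 7 genes had one. Where a gene had several entries, the entry nearest the peak summit was used for these genes and the first for all others. The upstream shares are therefore not like for like. A match is a run of letters and not a bound site. The GC content of the summit windows ranged from 45.8% at GAR1 and 53.2% at NOP10 to 68.7% at NOP56 and NCL, with a median of 66.7% over all genes, and GAR1 was lower in GC than all but 1.71% of genes.

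Other genes of the same pathways were described by the same measures. All 11 genes of snoRNP assembly had a pair, with a median log2 ratio of -0.05 (-0.03 by the scaled pileup). Lower in sgSNHG1 were 8 (72.7%, against 60.4% of all genes), and 7 by the scaled pileup (63.6% against 54.7%). None passed 0.5 in size by fold enrichment. By the scaled pileup 1 was at -0.5 or lower and 2 were at 0.5 or higher, against 10.8% and 6.79% of all genes. The ratios of fold enrichment ranged from -0.33 (NAF1) to 0.29 (PIH1D1, a subunit of the R2TP chaperone complex). Of 41 nucleolar ribosome biogenesis factors, 38 had a pair, 26 (68.4%) were lower and the median was -0.15. By the scaled pileup 23 (60.5%) were lower and the median was -0.11. By fold enrichment 4 genes were at -0.5 or lower and none at 0.5 or higher, against 8.17% and 2.21% of all genes. The 4 were NOC4L (-0.66, error 0.40), SURF6 (-0.56, error 0.47), NOL11 (-0.54, error 0.28) and RRP9 (-0.50, error 0.35). RRP9 is a protein of the U3 box C/D particle. The highest ratio was that of NOP2, an rRNA methyltransferase (0.42, error 0.39). A promoter peak was limited to control at GNL3 and to sgSNHG1 at MYBBP1A, and NOP53 had none in either list.

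Of 77 cytosolic ribosomal protein genes, 73 had a pair. By fold enrichment 43 (58.9%, against 60.4% of all genes) were lower and the median was -0.06. By the scaled pileup, however, 30 (41.1%, against 54.7%) were lower and the median was 0.04. On that scale 7 genes were at -0.5 or lower and 5 at 0.5 or higher, against 10.8% and 6.79% of all genes. RPL23A (-0.59, error 0.45) and RPL23 (-0.55, error 0.40) were at -0.5 or lower by fold enrichment, as were 8.17% of all genes. The highest was RPL6 (0.46, error 0.43). Of 27 snoRNA host genes other than SNHG1, 25 had a pair. By fold enrichment 13 (52%) were lower and the median was -0.02. By the scaled pileup, 10 (40%) were lower, 2 of them at -0.5 or lower (10.8% of all genes), and the median was 0.09. SNHG22 (-1.02, error 0.56) and SNHG8 on 4q (-0.57, error 0.37) were at -0.5 or lower by fold enrichment (8.17% of all genes). The highest was SNHG18 (0.39, error 0.39). By comparison, the median was 0.04 (-0.03 by the scaled pileup) for the 8 genes described here, -0.30 for the 2 box C/D genes with a pair, 0.06 for the 3 box H/ACA genes and 0.11 for the 3 nucleolar protein genes. The difference between these lists was not tested.

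**Figure D5:**
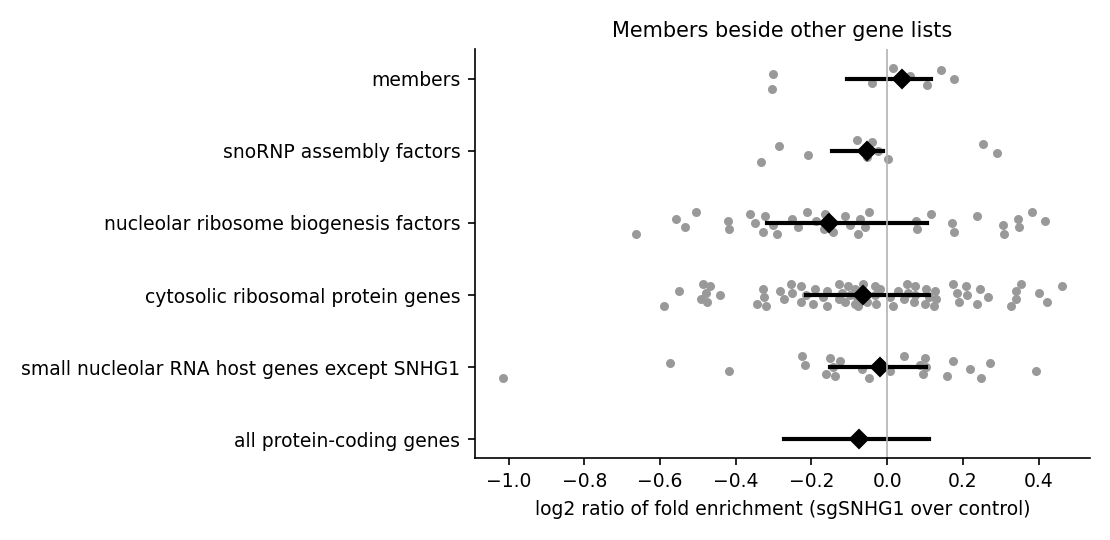
Fold enrichment ratio, sgSNHG1 over control, on the log2 scale for the genes of each list (grey points, spread vertically for legibility), with the median (diamond) and quartiles (bar), and the median and quartiles of all protein-coding genes below. The points of the 8 members lie between -0.30 and 0.18, and every list median lies between -0.15 and 0.04, with the sign of the median turned by the scaled pileup for the members, the ribosomal protein genes and the snoRNA host genes.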

How the data were processed

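ATAC-seq was performed on 2 control and 2 sgSNHG1 samples of the SK-N-BE(2)C line. According to the methods, cutadapt removed adapters and BWA aligned reads to GRCh38, and the authors marked duplicates with Picard (GATK), removed duplicate, multiply mapped, improperly paired, mitochondrial and blacklisted reads, and shifted read ends with deepTools. Peaks were called by MACS2 in paired-end mode on the pooled replicates of each group. Versions and the significance threshold are not given in the sources used here. The deposited peak lists hold a score, a fold enrichment (a ratio of summit pileup plus 1 to local background plus 1), -log10 p, -log10 q and a summit. The lowest deposited -log10 q was 2.00 in control and 2.01 in sgSNHG1. Because replicates were pooled, a peak that rests on 1 library cannot be recognised, and removing duplicates lowers the highest pileups. There were 0 unused sample columns.

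Fold enrichment and -log10 p together gave the whole-number pileup and the local background (tolerance 0.001), with an assumed pseudocount of 1 fragment in each, for 47609 of 47610 control and 42682 of 42682 sgSNHG1 peaks. Genes and starts came from GENCODE 44. Peaks that were each other's best overlap (at least 1 bp) formed a pair, and a gene took the pair with the highest mean log2 fold enrichment within 3 kb of any of its starts. The counting error is the Poisson error of both summit pileups, and its intervals are 1.96 errors wide on either side. Solving and overlap counting were tested on simulated data. The genes and lists were chosen with earlier results of these data known. Named are all 10 genes, DKC1, genes of each other list past a log2 ratio of 0.5 in size, the lowest and highest of each list, and genes that start within 3 kb of a start of these genes and share a peak. The FBL and NOP10 peaks beyond the gene were named after their values were seen. Within 10 kb of NOP56, SNU13 and NOLC1, other peaks had control fold enrichments of 4.99, 8.10 and 6.13. Those in sgSNHG1 were 3.68, 7.75 and 6.48. Further such peaks, near SNU13, NCL and NPM1, were called in control alone. Alternatives were the scaled pileup, other windows, starts, overlaps and -log10 q limits, the highest peak of each list and sums over the window. A further alternative kept only genes outside 4q, 9p and Xq, arms treated as shifted in pileup throughout. The ratio without the pseudocount was added after seeing the data. Python 3.11.15, numpy 2.4.6, pandas 2.3.3, scipy 1.17.1 and matplotlib 3.10.9 were used.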

Additional observations from a re-analysis of the deposited data

How the results depend on the processing

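No paired analysis was possible because the replicates of each group were pooled before peaks were called, and leaving out a replicate was not possible for the same reason. The number of genes past a log2 ratio of 0.5 in size went from 0 to 1 with the scaled pileup (GAR1, -0.79) and to 1 when fold enrichment was summed over the window (NOP56, 0.63, where the second sgSNHG1 peak enters the sum). The median of the members ranged from -0.03 (scaled pileup) to 0.19 (without the pseudocount, an alternative chosen after seeing the data), and the number lower in sgSNHG1 from 2 to 4. With the scaled pileup, 4 of 8 members were lower, against 54.7% of all genes, and without the pseudocount 2 of 8, against 50.8%. With a -log10 q of at least 5 or 10, NOP56 had no value. Within 50 bp of the control summit, GATA was found in 2 members, CCGGAA in 1, CCAAT in 2 and GGGCGG in 2. Within 100 bp of the sgSNHG1 summit, GATA was found in 5 members (24.9% of all genes), GGGCGG in 7 (61.1%) and CCGGAA in 4 (23.9%). TGACGTCA (2.55%) and AAGATGG (5.00%) were each found in 1, NOLC1. The median of the ribosomal protein genes went from -0.06 to 0.04 with the scaled pileup. Across all alternatives, 66 of 75 counts and medians stayed within 1.5 times (counts) or within the 95% counting interval of the median. Of 70 ratios of single genes, 69 stayed within their 95% counting interval, the exception being GAR1 with the scaled pileup. Other windows, overlaps, -log10 q limits and the highest peak returned the same pair, so that their agreement was fixed and is no measure of robustness. NOP56 at 0.63 counted as staying because its interval was wide (-1.46 to 0.85).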
